A study of Mus musculus with 2 samples.

Results

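The genes described here build and serve the primary cilium, the single antenna-like projection of most resting cells. They were chosen by name from a list of 35 genes for intraflagellar transport (IFT), its motors and the BBSome. With probe sets that carry a single gene symbol, 33 of the 35 were measured, out of 19938 genes in all, and each of the 33 had 1 such probe set. Arl6 and Arl13b are the other members of the list and have no value here. Cells from the dorsal dermis of newborn (P0) C57BL/6 mice were kept in culture for 24 h and then transfected with either control siRNA or siRNAs specific for β-catenin at 10 nM. RNA was taken after 48 h, and each group was measured on 1 Affymetrix array, 2 in all. Both groups thus share strain, age, culture time and transfection protocol, and their labels differ in the siRNA. With 1 array each, the siRNA cannot be told apart from a difference between cultures, transfections or arrays. The labels do not say how many pups or cultures stand behind each array, and untransfected cells were not analysed here. The siRNA sequences are not stated in the labels.

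IFT carries building material into the cilium and back out. Trains of the IFT-B complex are pulled towards the tip by the kinesin-2 motor, and IFT-A with the dynein-2 motor brings them back. The BBSome, a coat-like complex named after Bardet-Biedl syndrome, rides on these trains and removes receptors from the cilium. In dermal cells the cilium is best known as the place where Hedgehog signals are received, and it is resorbed when a cell divides.

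The values are log2 values of robust multi-array average (RMA), so a difference of 1 is a doubling of signal. Each difference below is the β-catenin siRNA array minus the control array. Since each group is a single array, no replicate error exists, no test was possible, and whether any difference exceeds the spread between cultures is unknown. The members were proposed from the same comparison, so their differences are a description and support nothing. The target itself, Ctnnb1, was at 10.48 with control siRNA and 9.34 with β-catenin siRNA, 45.2% of the control signal. As a guide to scale, the 10th and 90th percentiles of the differences of all genes were -0.35 and 0.30, and probe sets for 1 gene disagreed with a pooled SD of 0.148 over 577 genes at or above the median level with several of them.

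Fibroblast markers were bright on both arrays. Bright and dim here describe signal against the median gene level, not amounts of RNA, since each probe set has its own brightness. All 13 of them were at or above the median gene level of 5.13, with control values from 6.60 to 12.8, and 8 were higher and 5 lower on the β-catenin siRNA array, led by Lum (6.60 and 7.89), Dcn (difference 0.84) and Pdgfra (difference 0.75). Genes of motile cilia, which serve as markers of multiciliated cells, were mostly dim. Of 22 measured, 1 was at or above that level, the radial spoke gene Rsph9 with 5.69 and 5.86, and the factor Foxj1 had control and β-catenin siRNA values of 4.28 and 4.11. Keratinocyte markers were higher on the β-catenin siRNA array in 9 of 11 cases, lower in 1 and equal in 1. Of all genes, 41.6% were higher, 52.5% lower and 5.86% equal. The linear signals of the keratinocyte markers summed to 865 on the control array and 1352 on the other. Krt5 went from 7.64 to 8.65, Krt17 from 6.59 to 7.38 and Cdh1 from 5.23 to 5.98. Melanocyte markers were lower in 6 of 6 cases, with sums of 194 and 165, and Tyrp1, Pmel and Dct differed by -0.38, -0.27 and -0.01. No endothelial (6), macrophage (6), Schwann cell (3) or adipocyte (5) marker had a mean at the median level. Of 6 skeletal muscle markers 3 were higher and 3 lower, and 1 was at or above that level, the skeletal actin gene Acta1, which went from 9.32 to 8.07. The sum of that list was 746 on the control array and 386 on the other. Acta1 carried most of that sum, so the drop is that of 1 gene and not of the list. The muscle regulators Myod1 and Myog had control values of 4.36 and 4.20 and differed by -0.22 and 0.41. The part of these shifts in the cilium gene values was not tested, and in bulk RNA fewer cells of a type and less RNA per cell cannot be told apart.

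Several members carry, near their start, the letters bound by RFX factors, the transcription factors best known for driving cilium genes. Promoters of RefSeq (GRCm38.p6, 250 bases before to 50 after a gene's start) were found for 31 of the 35 members. They were searched for the X-box, spelled GTTNCC, then 0 to 3 bases N, then GGNAAC, which reads the same on both strands, and for the hexamer GTTGCC, 1 arm of it, on either strand, which can lie within an X-box. The X-box was in the promoters of 2 of 31 members, Ift57 and Bbs7, or 6.45%, against 0.936% of all 27025 genes with a promoter. The hexamer was in 13 of 31, or 41.9%, against 14.1% of all genes and 14.7% of the 8111 measured genes at or above the median level. The windows of 28 bases printed here are the 2 X-boxes, 1 hexamer each from IFT-A and kinesin-2, and those of the members with the largest positive (Dync2h1) and negative (Bbs1) difference. They are written along the gene's own strand, with the motif in capitals.
Ift57, X-box, chr16:49699227-49699254, plus strand: ccctgcgGTTGCCTGGTAACggtgggga
Bbs7, X-box, chr3:36613490-36613517, minus strand: cgccccgGTTGCCTTGGAAACcggccag
Ift140, hexamer, chr17:25015966-25015993, plus strand: cgtgttgtgacGGCAACctcgcgccctt
Kif3a, hexamer, chr11:53567260-53567287, plus strand: accccgcaggcGTTGCCccagtctagcg
Dync2h1, hexamer, chr9:7177009-7177033, minus strand, 25 bases to the end of the promoter entry: cgacggagcttGGCAACtgctgagt
Bbs1, hexamer, chr19:4906610-4906637, minus strand: tggctgagctgGTTGCCaaggcgacgcc
The X-box began 60 bases before the start of Ift57 and 121 before that of Bbs7, counted from the start site the table gives. These are matches of letters, not measured binding, and a promoter without them may hold other forms of the motif.

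Across the 33 measured members, 21 were higher and 12 lower on the β-catenin siRNA array by any amount. Over all genes 41.6% were higher, 52.5% lower and 5.86% equal. The median difference of the members was 0.08, against -0.02 over all genes, and it was -0.093 over the 7 members at or above the 75th percentile of level. By at least 1.2-fold, 7 members were higher and 2 lower, where 11.9% and 16.8% of all genes were. No member differed by 1.5-fold, which 2.23% of all genes did upward and 2.35% downward. Over the 9969 genes at or above the median level, 45.6% were higher, 53% lower and 1.4% equal. In that set 1.2-fold was reached upward by 11.1% and downward by 13.4%, and 1.5-fold by 2.46% and 1.79%. Of the 27 members in that set, 18 were higher and 9 lower, with 5 higher and 0 lower by at least 1.2-fold. Differences of the members ran from -0.38 (Bbs1) to 0.47 (Dync2h1). The 27 members whose mean was at or above the median gene level comprise the 18 IFT genes of the list, and the 6 below it are Dync2h1, Dync2li1, Bbs1, Bbs4, Bbs10 and Bbs12. The dim members include those with the 2 extreme differences, and RMA leaves background signal in dim values. All 33 members kept the sign of their difference after centring on level or on the median. This says little about stability, because both centrings moved the members by small amounts. The median over all genes was -0.02, and the lower member nearest to no difference was Ift27 at -0.04.

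**Figure D1:**
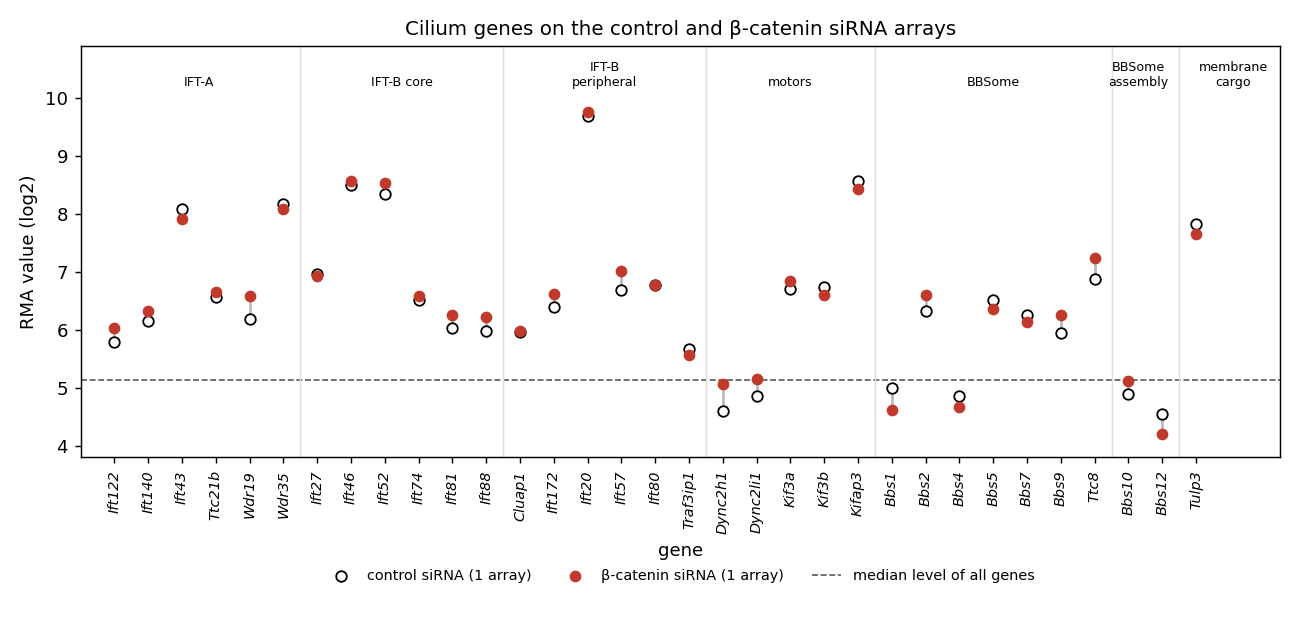
RMA values (log2, vertical axis) of the 33 measured cilium genes (horizontal axis, grouped by complex) on the control siRNA array (open circles) and the β-catenin siRNA array (filled circles), 1 array each; the dashed line is the median gene level, 5.13. The paired circles lie close together, with the widest gap at Dync2h1 (4.59 and 5.06). Heights of different genes cannot be compared as amounts of RNA, because each probe set has its own brightness.

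IFT-A genes were higher in 4 of 6 cases, against 41.6% of all genes, with a median difference of 0.13. It was -0.13 at or above the 75th percentile of level, where Ift43 and Wdr35 are left. Wdr19, which encodes the IFT144 subunit of the IFT-A core, had the largest difference of the 18 IFT genes, at 6.19 with control siRNA and 6.59 with β-catenin siRNA, or 1.32-fold higher. The core subunit Ift122 had values of 5.78 and 6.03, a difference of 0.25. Ift140, the remaining core subunit described here, was at 6.15 and 6.33, a difference of 0.18. All 3 core genes were thus higher by a small amount. The outer subunits were mixed. Ttc21b, which encodes IFT139, was at 6.57 and 6.65, a difference of 0.09. Wdr35, which encodes IFT121, was lower with 8.18 and 8.09, and Ift43, a small partner in the complex, was lower with 8.09 and 7.92, a difference of -0.17. Of the 6, Wdr19 alone reached 1.2-fold, which 11.9% of all genes did upward and 16.8% downward.

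IFT-B genes were higher in 10 of 12 cases, against 41.6% of all genes, mostly by little. The IFT-B median was 0.07, with 5 of 6 core genes and 5 of 6 peripheral genes higher. In the core, Ift88, whose loss abolishes cilia and whose partial loss gives polycystic kidneys in mice, had values of 5.98 with control siRNA and 6.23 with β-catenin siRNA, a difference of 0.25. Ift81 and Ift74 form the tubulin-carrying pair of the train. The control and β-catenin siRNA values of Ift81 were 6.03 and 6.26, and those of Ift74 were 6.51 and 6.59, so the difference was 0.23 for Ift81 and 0.08 for its partner. Ift52, a scaffold of the core, was at 8.35 and 8.54, a difference of 0.19. Ift46, known as a carrier of axonemal dynein cargo, was at 8.51 and 8.57. Ift27, a small GTPase needed for BBSome-dependent exit from the cilium, was the core's lower gene, at 6.97 and 6.93, a difference of -0.04. None of the 6 core genes reached 1.2-fold, which 11.9% of all genes did upward and 16.8% downward.

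Among the peripheral IFT-B genes Ift57 had the largest difference. Its values were 6.69 with control siRNA and 7.02 with β-catenin siRNA, a difference of 0.33 or 1.26-fold. Ift172, which encodes the subunit that acts in the turnaround of trains at the ciliary tip, was at 6.39 and 6.61, a difference of 0.22. For the other 4 peripheral genes the arrays lay close together. Ift20, which also works at the Golgi in sending membrane proteins to the cilium, had values of 9.70 and 9.76. Cluap1, which encodes IFT38, was at 5.97 and 5.99, and Ift80, a gene of short-rib skeletal ciliopathies, was at 6.77 and 6.78. The lower member was Traf3ip1, which encodes the microtubule-binding subunit IFT54, with 5.67 and 5.56, a difference of -0.11. Each of these 4 differed by less than 0.148, the pooled SD of the differences among probe sets for 1 gene. That SD comes from the same 2 arrays and holds no spread between cultures.

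The motors did not share a direction. Of dynein-2, the retrograde motor, the heavy chain and the light intermediate chain are on the list, and both genes were higher. Dync2h1, its heavy chain, had a control value of 4.59 and a β-catenin siRNA value of 5.06, or 1.38-fold. Dync2li1, the light intermediate chain, was at 4.86 and 5.16, or 1.23-fold. Both control values lay under the median gene level, so these differences rest on dim signal. Kinesin-2, the anterograde motor, is made of the motor subunits KIF3A and KIF3B and the adaptor KAP3. Kif3a was higher, with 6.71 and 6.85, a difference of 0.14. Kif3b was lower, with 6.74 and 6.59, a difference of -0.14. Kifap3, which encodes KAP3, was lower too, with 8.57 and 8.43, a difference of -0.13. All 3 kinesin-2 differences were smaller in size than 0.148, the pooled SD among probe sets for 1 gene, which is no measure of the spread between cultures. The median of the 5 motor genes was 0.14, and it was -0.13 when the 2 dim dynein-2 genes were left out by the level filter.

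BBSome genes split into 3 higher and 4 lower, where 41.6% and 52.5% of all genes were. Ttc8, which encodes BBS8, was at 6.88 with control siRNA and 7.23 with β-catenin siRNA, or 1.27-fold higher. Bbs9 was at 5.95 and 6.26, or 1.23-fold higher. Bbs2, which like Bbs7 and Bbs9 encodes a propeller-containing subunit, was at 6.33 and 6.61, or 1.21-fold higher. These 3 genes reached 1.2-fold, as did 1 gene in the other direction, against 11.9% and 16.8% of all genes. Bbs1, which encodes the subunit that contacts the GTPase ARL6 at the membrane, was at 4.99 and 4.61, or 1.30-fold lower. Bbs4, which like Ttc8 encodes a protein of helical repeats, was at 4.86 and 4.67, a difference of -0.19. Bbs5, whose product binds membrane lipids, was at 6.52 and 6.36, and Bbs7 was at 6.25 and 6.13, a difference of -0.13. Genes of 1 complex thus lay on both sides of 0. The median of the 7 was -0.13, and it was 0.28 over the 5 at or above the median gene level, since the filter removes Bbs1 and Bbs4.

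Bbs10 and Bbs12 encode chaperonin-like proteins that help assemble the BBSome. Bbs10 had values of 4.90 and 5.11 on the control and β-catenin siRNA arrays, a difference of 0.21. Bbs12 was 1.27-fold lower, at 4.54 and 4.20. The assembly factors therefore pointed in opposite directions, and both were dim. Tulp3, an adaptor that with IFT-A brings receptors into the cilium, was at 7.83 and 7.66, a difference of -0.17.

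**Figure D2:**
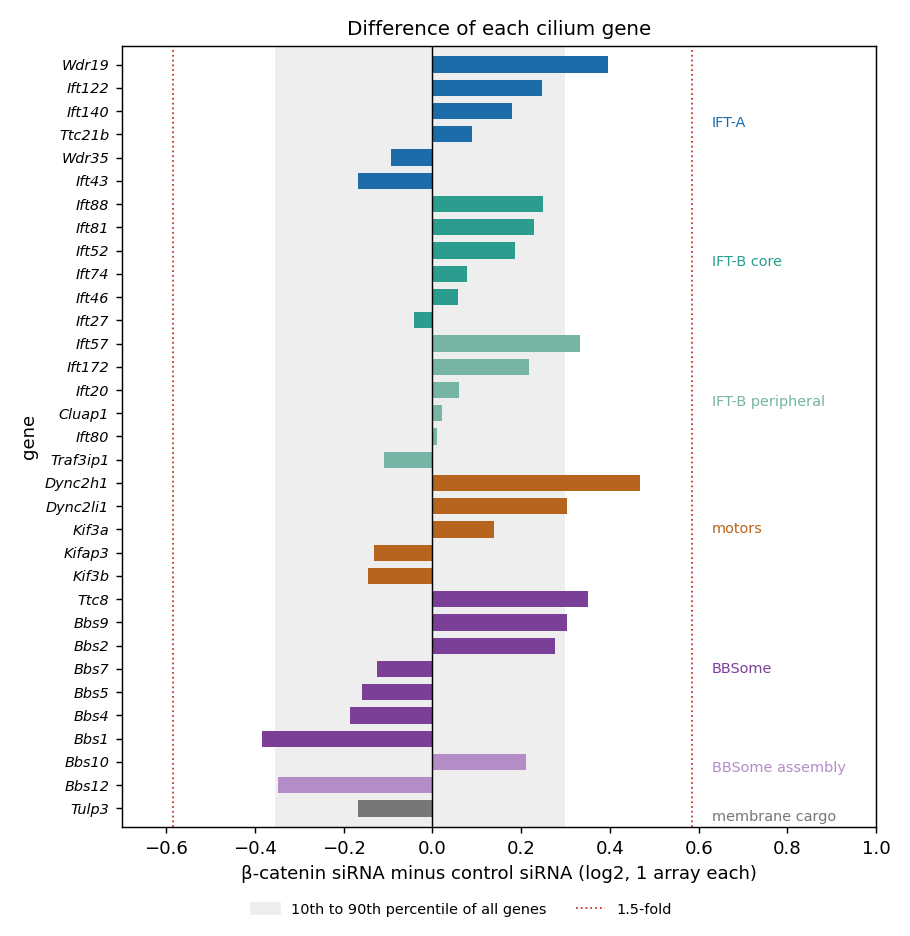
Difference of each measured cilium gene (bars, horizontal axis in log2 units, β-catenin siRNA minus control siRNA, 1 array each) by complex; the grey band spans the 10th to 90th percentile of all 19938 genes and dotted lines mark 1.5-fold. No bar reaches a dotted line, 6 bars pass the upper edge of the band at 0.30 (Dync2h1, Wdr19, Ttc8, Ift57, Bbs9 and Dync2li1) and 1, Bbs1, passes the lower edge at -0.35.

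The members with the GTTGCC hexamer did not stand to 1 side. Of the 12 measured members with it, 6 were higher and 6 lower, with a median difference of 0.05. Of the 17 measured members with a promoter entry and without it, 11 were higher and 6 lower, with a median of 0.06. The 2 X-box genes differed in sign, at 0.33 for Ift57 and -0.13 for Bbs7. Among 13 ciliogenic transcription factor genes 5 were higher and 8 lower (41.6% and 52.5% of all genes), with a median of -0.12. Of these 13, 6 were at or above the median gene level. Rfx1 was at 6.03 and 5.77 on the control and β-catenin siRNA arrays, a difference of -0.26, and Rfx5, whose product is best known for driving major histocompatibility genes, was at 5.21 and 5.45, a difference of 0.25. Mcidas, a regulator of multiciliated cells, was at 5.52 and 5.23.

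Genes for other parts of the same machines also lay within 1.5-fold, which 2.23% of all genes passed upward and 2.35% downward. At such shares a set of this size would hold few such genes or none. A further list held subunits and partners of IFT-B, dynein-2 and the BBSome, and the kinesin-2 family motor genes Kif17 and Kif3c. Of its 17 measured genes, 10 were higher and 7 lower (41.6% and 52.5% of all genes), with a median of 0.07. Those that reached 1.2-fold were 2 higher and 1 lower, where 11.9% and 16.8% of all genes did so. Both of the higher ones lay below the median gene level. The dynein light chain gene Dynll2, whose product serves other dyneins as well, was at 8.30 and 7.99, a difference of -0.32. Ttc26, which encodes the IFT-B subunit IFT56, was at 5.75 and 6.00, a difference of 0.25, and the light chain gene Dynlrb1 differed by -0.20. For comparison, 15 genes of cytoplasmic dynein-1, dynactin and conventional kinesin, the motors of the cell body, had a median of -0.05, with 6 higher and 9 lower. The lists are not fully separate in function, since light chains such as Dynll2 also serve other dyneins. Among the 15 genes Kif5b differed by -0.32, Dync1h1, the heavy chain of dynein-1, by 0.29 and Dync1li2 by -0.22.

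Genes for the gate and the base of the cilium lay on both sides of 0, all within 1.5-fold. The transition zone is the gate between cilium and cell body. Of its 24 measured genes 14 were higher and 10 lower (41.6% and 52.5% of all genes), with a median of 0.08. At 1.2-fold 8 were higher and 3 lower, against 11.9% and 16.8% of all genes. Mks1, a gene of Meckel syndrome, was at 5.15 with control siRNA and 5.67 with β-catenin siRNA, or 1.44-fold. Its partner gene Cc2d2a was at 5.44 and 5.93, or 1.40-fold, and the Joubert syndrome gene Ahi1 at 5.69 and 6.10, or 1.33-fold. Basal body and ciliogenesis genes numbered 26, of which 16 were higher and 10 lower, with a median of 0.09, and 6 and 2 of these by at least 1.2-fold. Pcm1, the scaffold of centriolar satellites, was at 7.37 and 7.77, a difference of 0.40, Cep19 differed by 0.41, and the GTPase gene Rab23 by -0.29. None of these 50 genes reached 1.5-fold, which 2.23% of all genes did upward and 2.35% downward. At such shares few would be found among 50 genes.

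Genes that act on or through the cilium had medians near 0. The 15 genes of the ciliary membrane and cargo had a median of -0.0039, and Rp2, Unc119 and Arl2bp, which handle lipid-anchored cargo, differed by -0.22, -0.11 and -0.11. Of 12 cilium disassembly genes 7 were higher and 5 lower (41.6% and 52.5% of all genes), with a median of 0.03. Plk4, the kinase of centriole duplication, was at 6.62 and 7.06, or 1.35-fold higher, while Aurka, the kinase that triggers resorption, differed by -0.24 and Trio by 0.18. The 11 genes of axonemal tubulin modification had a median of -0.05, and Ttll7, Agtpbp1 and Ttll5 differed by -0.40, -0.15 and -0.14. The 22 genes of motile cilia had a median of -0.03.

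Hedgehog reception and response is the pathway that depends on IFT in dermal cells. Its 13 measured genes had a median of -0.02, with 4 higher, 7 lower and 2 equal (41.6%, 52.5% and 5.86% of all genes). The Hedgehog antagonist gene Hhip was the exception in size, with 6.04 with control siRNA and 4.78 with β-catenin siRNA, or 2.40-fold lower. The co-receptor gene Boc was 1.23-fold lower and the Gli inhibitor gene Sufu differed by 0.14. Gli1 and Ptch1, often read as output of the pathway and named here after their values were seen, differed by -0.10 and 0.07. They do not stand for the whole list, in which Hhip differed by -1.26. Whether Hedgehog signalling differed was not tested. Ptch1 was at 5.53 and 5.60. Gli1 was dim, at 4.57 and 4.47, under the median gene level of 5.13, so its small difference says little about the pathway.

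**Figure D3:**
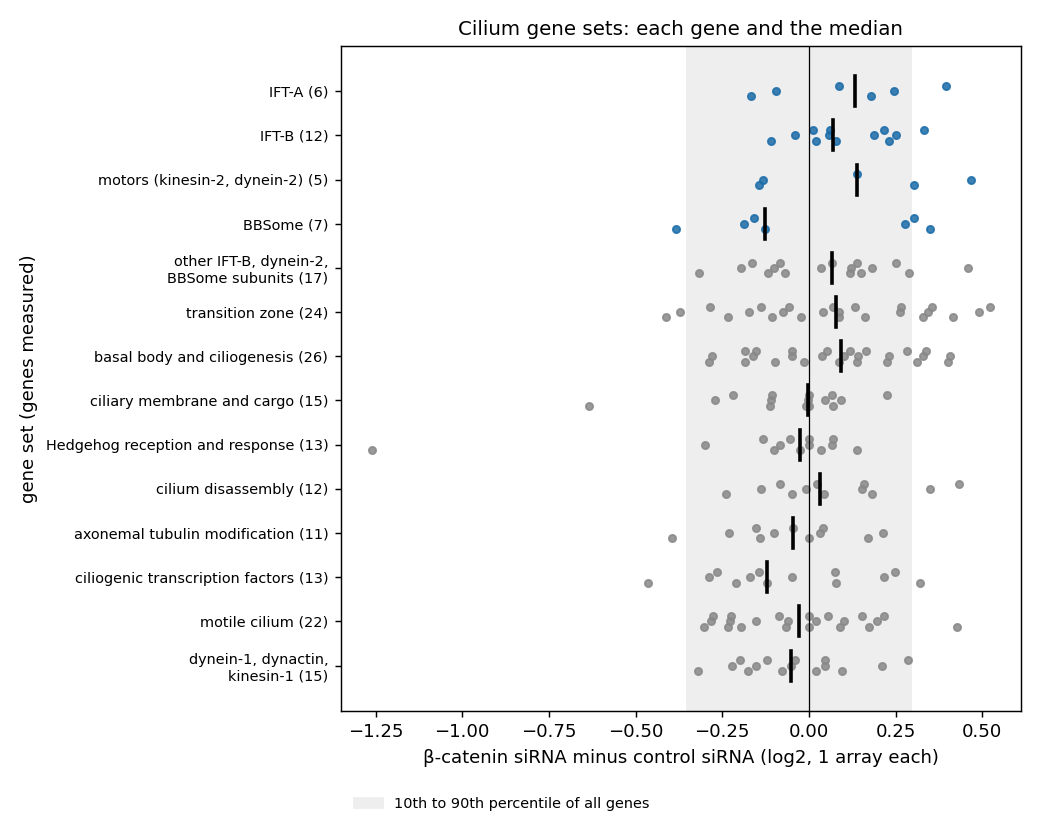
Difference of each gene (points, horizontal axis in log2 units, β-catenin siRNA minus control siRNA, 1 array each) in 4 groups of the members (blue) and 10 other gene sets (grey), with the number of genes measured in parentheses and the median as a black bar; the grey band is the 10th to 90th percentile of all genes. The medians lie between -0.13 (BBSome) and 0.14 (motors), and the point far to the left is Hhip at -1.26.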

How the data were processed

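The deposited table holds log2 values, 1 per probe set and array; they come from RMA, per the submitters' processing notes, with software, version and genome build not given in the sources used here. The log2 scale was judged from the range, 0.485 to 13.5. RMA equalises the arrays, so differences are relative to other genes. Of 28944 probe sets, 21789 carried 1 gene symbol in the platform annotation, 1621 several and 5534 none; the last 2 kinds were left out. Current symbols came from a RefSeq table (GRCm38.p6), which held 21698 of them. For a gene with several probe sets (999 of 19938), that with the highest mean was used.

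Differences were plain subtractions, computed with Python 3.11.15, pandas 2.3.3 and statsmodels 0.14.6; the collapse and fold counts were tested on simulated data. The members, gene lists and folds (1.2 and 1.5) were chosen with earlier results of these data known. All members are named, and of each other list the 3 largest absolute differences among genes at or above the median level, plus genes named after their values were seen (Foxj1, Gli1, Ptch1, Kif17, Kif3c, Myod1, Myog and those of the closing observations). The 6 alternatives changed centring, probe set or level filter. The counts above used no level filter, except where genes or members at or above a stated level are named. The small number of arrays limits the precision.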

Additional observations from a re-analysis of the deposited data

How the results depend on the processing

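Centring by lowess on level (span 0.3) or by the median kept the direction of every median and all 6 counts of members within 1.5 times. Both centrings moved the members by small amounts, so little could change. Averaging the probe sets of a gene or taking the dimmest could not change a member, since each has 1 probe set, and says nothing about stability. Lowess centring made 50.8% of all genes higher and 49.2% lower, and median centring 50% each, against 41.6% and 52.5% without; members stayed at 21 higher and 12 lower. With genes at or above the median level (27 members), the median was -0.13 for motors and 0.28 for the BBSome, both reversed. In that set 0 members were 1.2-fold lower, against 13.4% of genes. At or above the 75th percentile of level, 7.12, which leaves 7 members, the median was -0.093 over members, -0.13 for IFT-A and -0.13 for motors, all reversed. The motor value there is that of Kifap3 alone, which was just as low without the filter. There 3 members were higher and 4 lower, against 43.8% and 55.7% of all genes at that level. By at least 1.2-fold 0 were higher and 0 lower, against 8.47% and 12.7%. The filters leave out members by level, so each of these medians rests on a different set of genes. Why the direction changed with level was not tested. No paired analysis was possible because each group has 1 array, and for the same reason no replicate could be left out. Detection calls were not used here, so no member can be called above or below background.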

Other observations

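Some cilium genes below the median level also differed, named here after their values were seen. Ttc30b, which encodes the IFT70 subunit of IFT-B, was at 4.89 with control siRNA and 5.35 with β-catenin siRNA, a difference of 0.46, and its relative Ttc30a1 differed by 0.29. Probes of such close relatives can share signal. Cep290, a large scaffold of the transition zone, differed by 0.34. B9d2 and Nphp4, also of the transition zone, differed by -0.41 and -0.37. Rfx3, an activator of cilium genes, differed by 0.32 from a control value of 3.61. Mak, a kinase of the photoreceptor cilium, differed by -0.63. With 1 array per group none of these differences could be tested.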
